A study of Mus musculus with 4 samples.

Results

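The genes described here are the interleukin genes of the mouse and their receptors outside the interleukin-6 (IL-6) family. They are the protein-coding genes of the RefSeq annotation of GRCm38 whose symbol starts with Il and a digit, without Il6, Il6ra, Il6st, Il11, Il11ra1, Il11ra2 and Il27. The rule used no measured value and gave 76 members among 21887 protein-coding genes on chromosomes 1 to 19, X and Y. Some members are no cytokine or cytokine receptor in the usual sense. Il4i1 and Il4i1b encode secreted amino acid oxidases, and Il1rapl1 and Il1rapl2 encode relatives of the IL-1 receptors that act at neuronal synapses. Il27ra, whose product pairs with gp130, and Il31ra, whose product pairs with the oncostatin M receptor, are members by their symbols.

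Binding of the transcription factor STAT3 was mapped by chromatin immunoprecipitation and sequencing (ChIP-seq) with a rabbit antibody to STAT3 in dissociated spinal cord cells of C57BL/6 mice. Sham mice had a laminectomy at thoracic level 9, and mice with spinal cord injury (SCI) had the cord exposed and given a moderate contusion of 60 kdyn at the same level; tissue of the epicentre was taken after 7 days in both. Each condition had 1 STAT3 library, made from pooled tissue of 3 mice, and 1 input library that was not analysed here. No step described for the cells selects a cell type, the labels used here give no age, and peak lists do not measure expression, so the cells could not be checked against marker genes. With 1 library per condition no difference between sham and SCI has a replicate check.

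Interleukins are secreted proteins through which immune cells and glia signal to each other. Members of the IL-1 family act through receptors that recruit the adaptor MyD88, those of the common gamma chain, IL-10 and IL-12 families act through JAK kinases and STAT factors, and those of the IL-17 family act through the adaptor Act1. STAT3 is the main STAT factor below the receptors of IL-10, IL-21, IL-22 and IL-23, and in T cells it is needed for the expression of Il17a and Il17f. In the injured cord, microglia and invading myeloid cells are known sources of IL-1.

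The sham list held 88765 peaks and the SCI list 36249, and how many reads lie behind each is unknown. Each peak carries a score, the authors' own value for its strength, with a lowest value of 5 in both lists. Ranks and top percentages below place a peak by its score in its own list, and nothing in the labels says whether the scores of both lists are on 1 scale. A gene was counted as having a peak when the centre of a peak lay inside it or within 5 kb of either end, or, in the wider count, within 50 kb.

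Promoter windows come first, since they are the only sequence that could be set beside the peaks. Of the 76 members, 60 matched the RefSeq promoter table of GRCm38.p6, which gives 300 bases per start (250 before and 50 after it). Peaks of the sham list overlapped the window of 3 members, Il1rap, Il16 and Il20, and no SCI peak overlapped any; over all 17492 genes of the table the shares were 1.75% in sham and 0.720% in SCI. These windows are shown because the data place a peak on them, 5′ to 3′ on the strand of the gene, with the bases inside the sham peak in capitals. They lie at chr16:26581455-26581754 (plus strand, Il1rap), chr7:83655446-83655745 (minus strand, 1 of 3 starts listed for Il16) and chr1:130911247-130911546 (minus strand, Il20).
Il1rap: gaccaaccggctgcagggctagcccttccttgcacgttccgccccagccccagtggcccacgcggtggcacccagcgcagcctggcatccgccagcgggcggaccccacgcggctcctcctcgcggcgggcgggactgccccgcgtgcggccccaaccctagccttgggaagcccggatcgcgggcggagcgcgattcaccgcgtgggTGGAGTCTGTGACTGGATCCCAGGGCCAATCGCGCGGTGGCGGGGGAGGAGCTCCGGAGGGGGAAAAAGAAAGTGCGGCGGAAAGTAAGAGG
Il16: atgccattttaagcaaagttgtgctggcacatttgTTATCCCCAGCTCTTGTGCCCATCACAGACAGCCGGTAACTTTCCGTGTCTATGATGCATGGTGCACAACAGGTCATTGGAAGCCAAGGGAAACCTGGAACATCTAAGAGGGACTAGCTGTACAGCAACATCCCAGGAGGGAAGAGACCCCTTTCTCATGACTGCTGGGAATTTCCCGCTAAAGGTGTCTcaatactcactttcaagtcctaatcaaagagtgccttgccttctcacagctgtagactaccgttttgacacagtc
Il20: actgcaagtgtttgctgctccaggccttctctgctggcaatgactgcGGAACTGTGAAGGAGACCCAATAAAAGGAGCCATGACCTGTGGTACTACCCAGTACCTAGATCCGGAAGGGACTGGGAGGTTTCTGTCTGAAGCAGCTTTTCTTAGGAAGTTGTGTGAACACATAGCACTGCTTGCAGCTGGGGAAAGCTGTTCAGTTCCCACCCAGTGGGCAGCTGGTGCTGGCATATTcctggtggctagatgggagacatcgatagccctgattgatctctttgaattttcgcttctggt
The sham peak covered 92 bases of the window of Il1rap and 190 bases, its whole width, of those of Il16 and Il20. Its centre lay 52.5 bp from the start of Il1rap, 120.5 bp from that of Il16 and 108.5 bp from that of Il20.

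The STAT motif was searched in the same windows as TTCNNNGAA, which reads the same on both strands, and as its stricter form TTCCNGGAA, every match of which is also a match of the first. None of the 3 windows above holds either. TTCNNNGAA was found at 10 of the 60 members, 16.7% (95% exact interval 8.29 to 28.5%), and at 8.92% of all genes in the table, a share inside that interval. TTCCNGGAA was found at 1 member, Il31ra, and at 1.38% of all genes. Over all protein-coding genes, 9.82% of the windows overlapped by a sham peak held TTCNNNGAA, against 7.66% of the others; with SCI peaks the shares were 9.85 and 7.68%. The windows of Il31ra (chr13:112580613-112580912, minus strand), a receptor chain for IL-31, and of Il18r1 (chr1:40465756-40466055, plus strand), a chain of the IL-18 receptor, are printed with the motif in capitals as the member with the strict form and the member with 2 matches.
Il31ra: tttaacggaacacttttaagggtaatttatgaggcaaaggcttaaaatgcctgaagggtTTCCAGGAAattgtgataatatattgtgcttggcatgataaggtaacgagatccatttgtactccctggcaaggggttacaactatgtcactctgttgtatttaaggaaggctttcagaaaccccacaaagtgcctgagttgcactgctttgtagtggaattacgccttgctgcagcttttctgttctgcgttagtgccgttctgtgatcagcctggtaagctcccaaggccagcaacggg
Il18r1: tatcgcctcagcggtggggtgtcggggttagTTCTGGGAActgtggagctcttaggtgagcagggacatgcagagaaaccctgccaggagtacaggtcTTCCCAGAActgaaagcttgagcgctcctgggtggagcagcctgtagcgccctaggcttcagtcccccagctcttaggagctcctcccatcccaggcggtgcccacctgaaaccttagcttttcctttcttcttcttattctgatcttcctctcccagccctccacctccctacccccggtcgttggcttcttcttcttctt
The nearest sham peak lay 15240.5 bp from this start of Il31ra and 24078.5 bp from this start of Il18r1, and the nearest SCI peaks were farther away. The other members with TTCNNNGAA were Il12rb2, Il17d, Il19, Il1f5, Il1f9, Il1r2, Il4 and Il7r. A match of letters is a description and not a binding site, and the sequence under the other peaks was not read.

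A sham peak was found at 52 of the 76 members within 5 kb, 68.4% (95% exact interval 56.7 to 78.6%), beside 66.7% of all protein-coding genes. An SCI peak was found at 26 members, 34.2% (23.7 to 46.0%), beside 43.9% of all. Since longer genes hold more peaks, the members were also set beside genes of the same length class, 1 of 10 classes of equal size over all protein-coding genes. These shares, summed over the members, gave 51.4 genes for sham and 32.6 for SCI. The sham count was thus the number that length gives, and the SCI count was lower, with the share by length (42.9%) inside the interval of the members. The intervals cover counting error only. They take the members as independent, although 37 of the 76 lie in clusters with gaps of at most 100 kb, which can make them too narrow. Within 5 kb the members shared almost no peaks, with 173 pairs of gene and peak for 172 sham peaks and 68 for 68 in SCI.

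Peaks in both conditions were found at 23 members, beside 37.3% of all genes and 27.2 members by length class. A sham peak alone was found at 29 members (29.3% of all genes, 24.2 members by length class), an SCI peak alone at 3 members (6.51% and 5.47), and no peak of either list at 21 members (26.8% and 19.1). Counting peaks inside the gene alone, 39 members had a sham peak (51.0% of all genes, 38.5 members by length class) and 18 an SCI peak (33.4% and 24.0). Of these, 14 had both (28.1% of all genes), 25 a sham peak alone (22.9%) and 4 an SCI peak alone (5.28%), which left 33 with no peak inside (43.7%). Within 5 kb the members held 172 sham and 68 SCI peaks, of which Il1rapl1 and Il1rapl2 held 72 and 32. The peaks were of usual strength for peaks at genes. Their median score was 8.05 in sham and 7.61 in SCI, against 8.19 and 7.47 for peaks at any protein-coding gene, and 19 of the 172 and 7 of the 68 lay in the top 10% of their list, against 10.7 and 10.3% of peaks at any protein-coding gene.

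**Figure D1:**
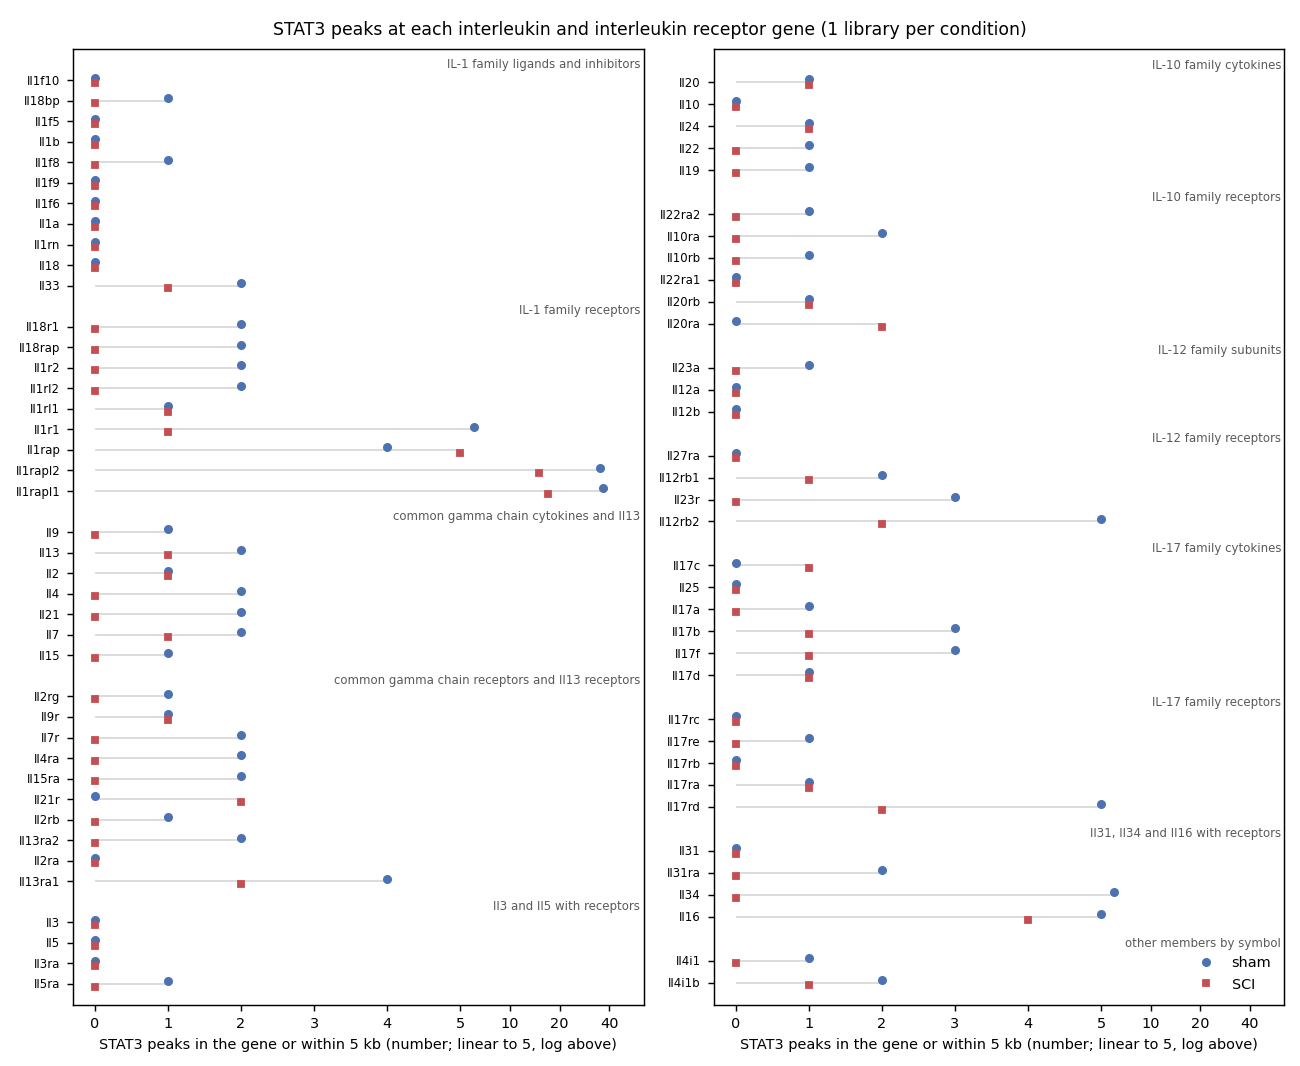
Number of STAT3 peaks inside each member or within 5 kb (horizontal axis, linear to 5 and log above) in sham (blue circles) and SCI (red squares), with members grouped by role and sorted by length within a group. Il1rapl1 and Il1rapl2 hold 37 and 35 sham peaks, while the other members hold 6 or fewer in either list.

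Among the cytokines of the common gamma chain family and Il13, all 7 genes had a sham peak within 5 kb, where length gives 4.10. The 95% exact interval starts at 59.0% and the share by length is 58.6%. No allowance was made for the number of role groups, and Il2 with Il21 and Il4 with Il13 lie in clusters. An SCI peak was found at 3 of the 7 genes, where length gives 2.48. Il2, the T cell growth factor gene (chromosome 3, 37120713 to 37125954), carried the strongest peak at any member in both lists, at 1 shared position. The sham peak at chr3:37122830-37122963 scored 56.4 and ranked 173, and the SCI peak at chr3:37122869-37122933 scored 52.3 and ranked 23. Both lay inside the gene, 3057.5 and 3053 bp after its start, and both were narrower (134 and 65 bp) than the usual peak of their list (190 and 164 bp). Il7, a survival factor for lymphocytes, also had a shared position, outside the gene at 1443.5 bp (sham) and 1395.5 bp (SCI), in the top 13.0% of sham and the top 7.67% of SCI. Il21, a cytokine of T helper cells that signals through STAT3, had 2 sham peaks and no SCI peak. The stronger one lay 2848.5 bp upstream (score 23.8, top 5.63%). Il9, a growth factor gene for mast cells and T cells, had 1 sham peak of 12.5. Il4 and Il15 also had peaks in sham alone, with best scores of 6.45 (top 70.9%) and 5.32 (top 87.5%). The sham count of 7 thus includes genes with only peaks of low score. Il13 had 2 sham peaks and 1 SCI peak at different places, all outside the gene, and 1 of the sham peaks lay 848.5 bp upstream of its start with a score of 5.32.

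The receptors of this family, with the 2 receptors of IL-13, had peaks at 8 of 10 genes in sham and at 3 in SCI, where length gives 7.74 and 4.96. Il2rg, the common gamma chain itself (chromosome X, 101264385 to 101268255), and Il2rb, the beta chain of the IL-2 and IL-15 receptors, each had 1 sham peak inside the gene and no SCI peak within 5 kb. They scored 21.3 (top 7.55%) and 22.6 (top 6.49%). Il21r, the receptor of IL-21, showed the opposite order, with SCI peaks of 5.88 and 5.93 inside the gene, close to the lowest score of the list, and its nearest sham peak 25.5 kb away. Il13ra1, shared by the receptors of IL-4 and IL-13, had 4 sham and 2 SCI peaks, all inside the gene, with 1 shared position (top 32.8% in sham, top 69.0% in SCI). Il9r, the IL-9 receptor, had a sham peak in the top 27.3% inside the gene and an SCI peak in the top 87.6% that lay 3258.5 bp downstream. Il4ra, the IL-4 receptor chain, Il7r and Il15ra, the receptors of IL-7 and IL-15, and Il13ra2, a decoy receptor of IL-13, had 2 sham peaks each and no SCI peak within 5 kb. The best of these 8 peaks scored 17.2, in Il13ra2, and the lowest 5.64, near Il4ra. Il2ra, the IL-2 receptor alpha chain of activated and regulatory T cells, had no peak within 5 kb, and its nearest ones lay 7.45 kb (sham) and 23.3 kb (SCI) away.

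In the IL-10 family, Il10, the anti-inflammatory cytokine gene, had no peak within 5 kb in either list, and its nearest peaks lay 9.85 kb (sham) and 23.7 kb (SCI) away. Its neighbours Il20 and Il24 had 1 peak in each list, at different places, and Il19 had a sham peak alone, as had Il22, a cytokine of barrier tissues whose peak lay 2481.5 bp upstream (score 10.8). The SCI peak near Il20 scored 10.9 and lay 3359.5 bp upstream, while its sham peak, the one shown above at the start, scored 5.32 (top 87.5%). Of the receptors, Il20ra, the alpha chain for IL-19, IL-20 and IL-24, had 2 SCI peaks inside the gene, the stronger with a score of 16.9 (top 6.20%). Its nearest sham peak lay 24.0 kb away, farther than at all but 10.8% of protein-coding genes. Il22ra2, which encodes a soluble binding protein for IL-22, and Il10ra, the ligand-binding chain for IL-10, had sham peaks alone, with best scores of 8.80 and 6.48. Il20rb, the partner of Il20ra, had a sham peak of 8.25 inside the gene and an SCI peak of 5.29 upstream, and Il10rb, the other chain of the IL-10 receptor, had 1 sham peak of 5.32 at 4930.5 bp from the gene. Il22ra1, the IL-22 receptor chain of epithelial cells, had none within 5 kb in either list.

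In the IL-12 family, 1 of 3 genes of cytokine subunits had a sham peak within 5 kb and none an SCI peak, where length gives 1.63 and 0.853. Il12a and Il12b, the subunits of IL-12, had no peak there, and Il23a, a subunit of IL-23, had 1 sham peak (score 8.07). The nearest peaks of Il12b lay just beyond the limit, at 5.23 kb (sham) and 6.07 kb (SCI). A shared position stood upstream of Il12b, with an SCI peak of 14.3 (top 10.5%) at 7.46 kb and a sham peak of 9.81 (top 36.9%). Of the 4 receptor genes, 3 had a sham peak and 2 had one in SCI, where length gives 3.23 and 2.24. Il23r, the receptor chain of IL-23, had 3 sham peaks and no SCI peak within 5 kb, the strongest 963.5 bp downstream of the gene with a score of 38.9 (top 1.04%). Il12rb1, the chain shared by the receptors of IL-12 and IL-23, had a sham peak inside the gene with a score of 40.9 (top 0.847%) and a weaker SCI peak elsewhere in the gene (7.62, top 46.6%). Il12rb2, the other chain of the IL-12 receptor, had 2 shared positions downstream of the gene, both inside its neighbour Serbp1. At 1 of them the SCI peak (chr6:67281993-67282062, 70 bp wide) scored 42.7 and ranked 46 in its list, while the sham peak over it scored 5.14, in the top 91.7%. At the other the sham peak stood higher, in the top 14.1%, with the SCI peak in the top 27.3%. Il27ra, the IL-27 receptor chain, had no peak within 5 kb, and its nearest ones lay 23.0 kb (sham) and 40.6 kb (SCI) away.

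In the IL-17 family, 4 of 6 cytokine genes had a peak in each list, where length gives 2.91 for sham and 1.51 for SCI. Il17f, a cytokine of T helper 17 cells, had 3 sham peaks and 1 SCI peak, with a shared position of low score inside the gene (5.71 in sham, 5.93 in SCI) and its strongest sham peak (19.3, top 9.64%) not in the SCI list. Il17a, its neighbour and partner, had 1 sham peak 4898.5 bp downstream (score 15.7) and no SCI peak within 5 kb. Il17c, an epithelial member of the family, had an SCI peak alone (7.15, top 51.9%), but a sham peak lay 5.45 kb away, just beyond the 5 kb limit. Il17b had 3 sham peaks and 1 SCI peak, none shared. The strongest sham peak (24.8, top 4.96%) lay inside the neighbour Pcyox1l, and the SCI peak (12.8, top 14.1%) lay 1729.5 bp from the gene. Il17d had 1 peak of each list inside the gene, 17.1 in sham and 9.59 in SCI, which did not overlap. Il25, a cytokine of tuft and epithelial cells, had none within 5 kb. Of the receptors, Il17rd, also known as an inhibitor of FGF signalling, had 5 sham and 2 SCI peaks. Its shared position, inside the gene at chr14:27078388-27078577 in sham, had a score of 36.3 (top 1.35%) in sham and 14.7 (top 9.66%) in SCI. Il17rd also had a sham peak of 22.2 that lay 780.5 bp before its start. Il17ra, the chain common to the IL-17 receptors, had a sham peak of 6.75 and an SCI peak of 8.78, on opposite sides of the gene, and Il17re, the receptor of IL-17C, had 1 sham peak of 5.36. Il17rb and Il17rc had no peak within 5 kb.

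Among the remaining members, Il34, a ligand of the CSF1 receptor on microglia, had 6 sham peaks and no SCI peak within 5 kb. Its sham scores ran from 5 to 24.2 (top 5.33%), and its nearest SCI peak lay 11.1 kb away. Il16, a chemoattractant for CD4+ cells, had 5 sham and 4 SCI peaks, of which 1 position was shared. Il31ra had sham peaks alone, the stronger with a score of 14.0. Il3, Il5 and Il3ra had no peak within 5 kb in either list, and Il5ra had 1 sham peak of 6.37. Il31, an itch-related cytokine gene of T cells, had none within 5 kb either, with a sham peak just beyond at 5.10 kb. Il4i1b had a shared position inside the gene that also lies inside Nup62 (score 6.02 in sham and 9.72 in SCI). Il4i1, which overlaps Il4i1b, had a sham peak alone of 10.1, at 2742.5 bp upstream. That peak lies inside Il4i1b and is counted for both genes.

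Shared positions, where a peak of each list overlapped by at least 1 bp, were found at 11 members, beside 16.4% of all genes and 11.5 members by length class. They comprised 17 peaks in each list, thus 17 of the 172 sham and 17 of the 68 SCI peaks at members, beside 9.30% of the sham and 23.0% of the SCI peaks at any protein-coding gene. The distance between the places of a shared position in the lists varied among the members, and it was wide at Il1rapl1. The weakest of the 3 shared SCI peaks of Il1rapl1 (5.61, top 81.4%) lay over a sham peak of 30.9 in the top 2.46%, and its strongest (19.4, top 4.01%) lay over a sham peak of 5.33 in the top 87.5%.

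**Figure D2:**
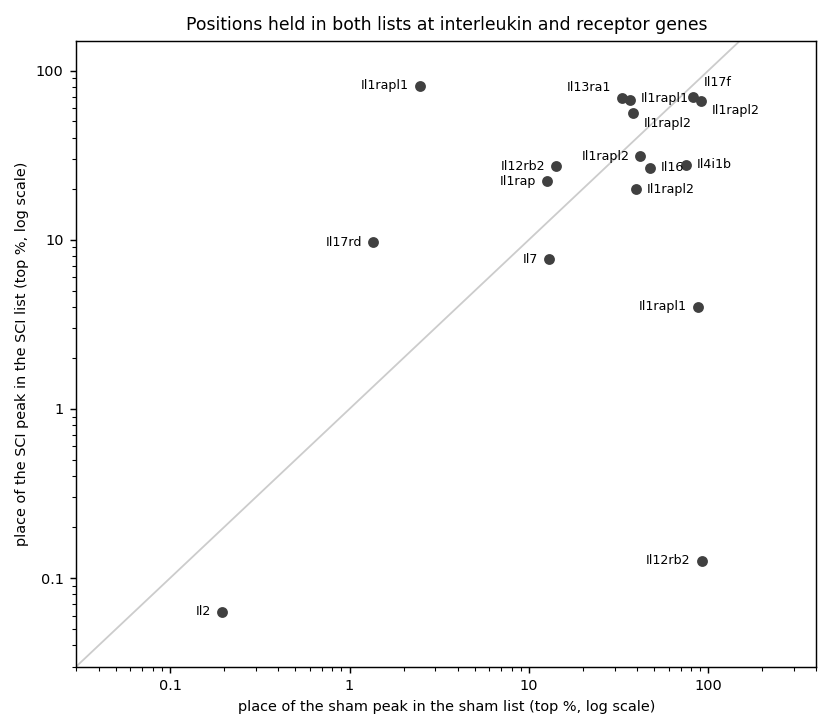
Place of the sham peak in the sham list (horizontal axis, top percent, log scale) against the place of the SCI peak in the SCI list (vertical axis, top percent, log scale) for the 17 shared positions at members, with the line of equal places. Il2 stands in the top 0.195% and top 0.0635%, and Il12rb2 has 1 position in the top 0.127% of SCI but the top 91.7% of sham.

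Of the 60 members in the promoter table, 6 had a sham peak within 1 kb of a start (exact interval 3.76 to 20.5%), beside 7.29% of all genes, and 1 had an SCI peak, 1.67% (0.0422 to 8.94%), beside 3.19%. The 6 genes were Il1rap, Il16, Il17rd, Il1f8, Il13 and Il20. Il1rap, the accessory chain that the receptors of IL-1, IL-33 and IL-36 need for signalling (chromosome 16, 26581509 to 26730128), was the member with peaks of both lists there. A shared position stood 555.5 bp (sham, score 17.2, top 12.6%) and 505.5 bp (SCI, score 10.8, top 22.2%) after the start, beside the weaker sham peak on the window shown above (8.62, top 45.6%). Il1rap also had 5 SCI peaks against 4 sham peaks, although the SCI list is the shorter. Genes of its length class (109 to 2390 kb) averaged 3.92 SCI and 9.43 sham peaks, but Il1rap, at 149 kb, lies near the lower end of that class. Genes of the next shorter class (57.1 to 109 kb) averaged 1.51 SCI and 3.75 sham peaks. The other 4 SCI peaks of Il1rap scored 5 to 5.93 and were not shared.

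The other receptors of the IL-1 family had more sham than SCI peaks or the same number. All 9 receptor genes had a sham peak within 5 kb and 5 had an SCI peak, where length gives 8.31 and 6.56. Il1r1, the signalling receptor of IL-1 (chromosome 1, 40222480 to 40316201), had 6 sham peaks with scores from 5.31 to 21.2 and 1 SCI peak of 6.45. Its neighbours Il1r2, a decoy receptor, Il1rl2, the IL-36 receptor, and Il18r1 and Il18rap, the chains of the IL-18 receptor, had 2 sham peaks each and no SCI peak within 5 kb, and the best of Il18r1 scored 31.8 (top 2.23%). Il1rl1, the receptor of IL-33, had 1 peak in each list, ranked 8911 in sham and 29023 in SCI, at different places in the gene. From Il1r2 to Il18rap, with 50 kb on either side, the cluster held 22 sham and 4 SCI peaks, and 1 position was shared.

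The ligands of the IL-1 family had the lowest share of genes with an SCI peak of the role groups in the wider count. Of the 11 genes, which include the inhibitors Il1rn and Il18bp, all had a sham peak within 50 kb, where length gives 10.5, and 2 had an SCI peak, where length gives 9.04 (18.2%, exact interval 2.28 to 51.8%, against 82.1%). Within 5 kb the count was 3 genes in sham and 1 in SCI, against 6.06 and 3.29. Il33, an alarmin of glia and barrier cells, was the one with an SCI peak inside the gene (7.60, top 46.7%), and it had 2 sham peaks at other places. Il18bp had a sham peak of 6.94 and its nearest SCI peak at 32.5 kb. Il1f8, which encodes IL-36 beta, had 1 sham peak of 7.55 inside the gene, 235.5 bp from its start. Il1a and Il1b, the genes of IL-1 alpha and IL-1 beta, had their nearest SCI peaks 55.2 and 97.5 kb away and their nearest sham peaks 17.8 and 14.7 kb away. Il18 had its nearest SCI peak at 58.5 kb and its nearest sham peak at 6.42 kb.

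These ligands are not independent observations, since 8 of them lie in 2 clusters on chromosome 2. The cluster from Il1f8 to Il1rn, with 50 kb on either side (298 kb), held 11 sham peaks and no SCI peak. The distance from its genes to the nearest SCI peak ran from 76.9 kb at Il1f8 to 215 kb at Il1f10, and 2.05% of protein-coding genes are as far from an SCI peak as Il1f10. Stretches of this length, laid end to end from the first to the last peak of each autosome and X, held no SCI peak in 2.88% of 8604 cases, and in 2.58% of the 5784 that hold the middle of a protein-coding gene. The stretch of Il1a and Il1b with 50 kb on either side (172 kb) held 6 sham peaks, up to a score of 35.4, and no SCI peak. Of 14969 stretches of that length, 11.7% held no SCI peak, and 9.75% of the 8328 with the middle of a gene. No allowance was made for the choice of these 2 stretches among the 13 clusters and 39 single genes of the members. With the sham list shortened to its 36249 strongest peaks, 4 sham peaks remained in the first stretch and 5 in the second, and 10 of the 11 ligands had one within 50 kb, where length gives 9.06.

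**Figure D3:**
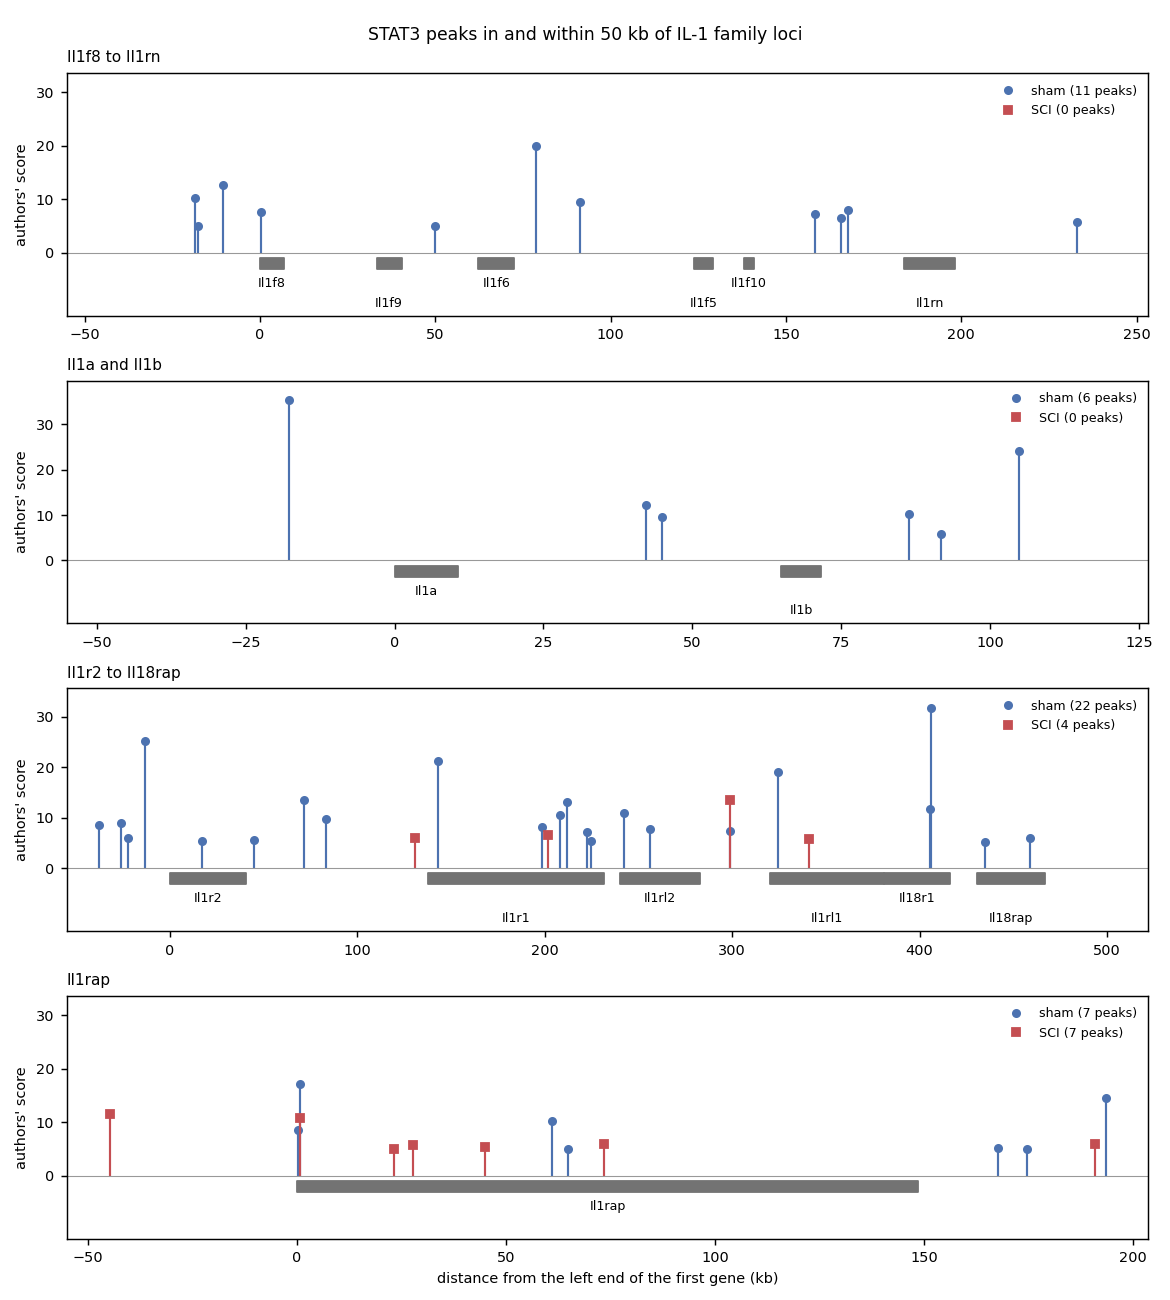
Peaks in and within 50 kb of 4 IL-1 family loci, as the distance of the peak centre from the left end of the first gene (horizontal axis, kb) against the authors' score (vertical axis), sham in blue and SCI in red, with genes as grey bars. The 2 ligand clusters hold 11 and 6 sham peaks and no SCI peak, the receptor cluster 22 and 4, and Il1rap 7 of each.

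Within 50 kb, 75 of the 76 members had a sham peak, beside 95.6% of all genes and 73.2 members by length class, and 58 had an SCI peak, beside 84.2% and 64.9. The SCI share was 76.3% (65.2 to 85.3%) against 85.4% given by length, which lay just above the upper end of the interval. Neighbouring members share peaks in this count (161 pairs of gene and peak for 143 SCI peaks), which makes the interval too narrow. Without the 11 IL-1 ligands, left out after their counts were seen, 56 of 65 members had an SCI peak, where length gives 55.8. Peaks of both lists were found at 57 members (82.6% of all genes), and no member was without any peak (2.82% of all genes). A sham peak alone was found at 18 members (13.0% of all genes, 9.47 members by length class), 9 of them IL-1 ligands. An SCI peak alone was found at 1 member (1.60% of all genes), Il3ra, the IL-3 receptor alpha chain. The strongest SCI peak between 5 and 50 kb lay 13.1 kb upstream of Il3, a growth factor gene of myeloid progenitors, at chr11:54280362-54280419. It scored 46.1, ranked 36 in the SCI list, and was shared with a sham peak of 25.5 (top 4.56%). The strongest sham peak in that range, of 72.3 and rank 41, lay 9.87 kb upstream of Il31 and inside its neighbour Lrrc43, with no SCI peak over it.

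**Figure D4:**
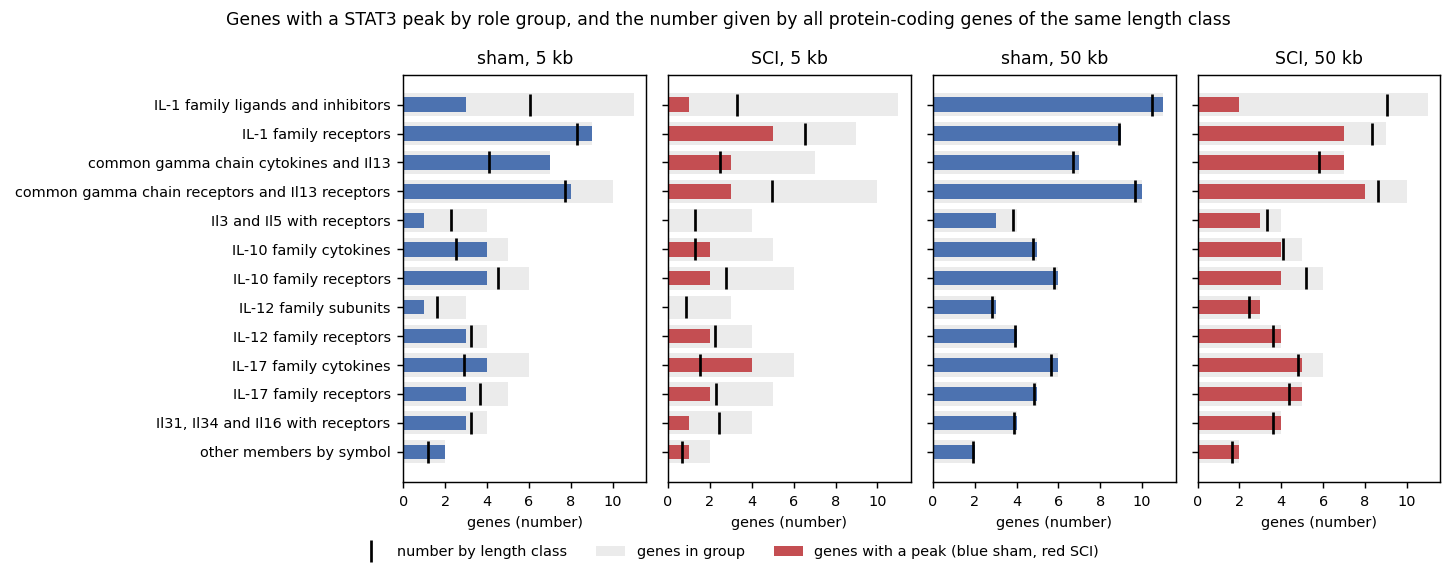
Number of genes with a peak (coloured bars) out of the genes in each role group (grey bars) for sham and SCI within 5 and 50 kb, with black marks for the number given by all protein-coding genes of the same length class. The IL-1 ligands stand at 2 of 11 against 9.04 in SCI within 50 kb, and the common gamma chain cytokines at 7 of 7 against 4.10 in sham within 5 kb. No allowance was made for the number of role groups shown.

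By function, the 37 receptor genes had a sham peak within 5 kb at 29 and an SCI peak at 14, where length gives 29.9 and 20.4. The SCI share, 37.8% (22.5 to 55.2%), had the share by length, 55.2%, at its upper end. The 35 cytokine genes, without the inhibitors Il1rn and Il18bp and the oxidases, had a sham peak at 20 and an SCI peak at 11, where length gives 19.3 and 11.01. Receptor genes are longer, with a median of 32.4 kb against 6.21 kb.

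The 2 longest members followed their length. Il1rapl1 (chromosome X, 86740937 to 88115948) held 37 sham and 17 SCI peaks and Il1rapl2 (chromosome X, 137570754 to 138849077) 35 and 15, all inside the genes. Per megabase this was 26.9 sham and 12.4 SCI peaks for Il1rapl1, and 27.4 and 11.7 for Il1rapl2. The 59 protein-coding genes of 1 Mb or more had medians of 27.5 and 11.7. The strongest sham peaks scored 38.0 in Il1rapl1 and 42.2 in Il1rapl2, the latter only 50 bp wide and so narrower than the usual 190 bp.

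A further list held 32 genes of interleukin signalling that are not members. It covers receptors, related cytokines and subunits (Csf2, Tslp and Ebi3), kinases, STAT factors, adaptors, inhibitors and inflammasome genes. Of the 32, 28 had a sham peak within 5 kb and 16 an SCI peak, where length gives 23.3 and 15.3. Jak1, 1 of the JAK kinases, held 9 sham and 3 SCI peaks, and Tyk2, which serves the receptors of IL-12, IL-23 and IL-10, held 3 and 2. Genes of the length class of Jak1 (109 to 2390 kb) averaged 9.43 sham and 3.92 SCI peaks, but Jak1 lies near the lower end of that class. Genes of the next shorter class (57.1 to 109 kb) averaged 3.75 sham and 1.51 SCI peaks. Shared positions stood at 4 of the 32 genes, beside 16.4% of all protein-coding genes. The 4 were Stat3, Jak1, Tyk2 and Csf1r, the receptor of IL-34. Myd88, the adaptor of the IL-1 receptors, had 1 sham peak and no SCI peak, and Casp1, the protease that activates IL-1 beta, had 1 SCI peak and no sham peak. Jak3, the kinase that pairs with the common gamma chain, had 1 sham peak and no SCI peak.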

How the data were processed

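STAT3 ChIP libraries of sham and SCI spinal cord cells were compared through their peak lists, each matched to its sample by title. Reads were aligned with Bowtie2 to mm10, per the submitters' processing notes; no label or header names the caller, the control or the threshold behind the peaks. In the deposited lists there is a score per peak, 5 or more throughout, and a −log10 value, in the field for q-values, that was not used further. Read counts are not part of the lists, so depth is unknown.

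Each peak on an autosome, X or Y was assigned to RefSeq genes of GRCm38.p6, whose primary chromosomes have mm10 coordinates. Gene starts and strands came from the RefSeq promoter table. For each member, the share of protein-coding genes with a peak in the same of 10 equal classes by length was taken, and these shares were summed. Intervals are exact binomial (Clopper-Pearson, 95%). No test between conditions and no random list was used. The members, role groups and signalling list were chosen with earlier results of these data known, as were the alternatives, and leaving out the IL-1 ligands was added after these data were seen. Named were members at the 10 strongest peaks of each list, with a shared position, with an SCI peak alone, with a sham peak alone (up to 2 per role group by rank), with most peaks, with no peak of either list within 50 kb (none), or with a peak within 1 kb of a start; others named were chosen after their values were seen. The counting was tested on simulated data. Software was Python 3.11.15 with scipy 1.17.1, pandas 2.3.3, numpy 2.4.6 and, for plots, matplotlib 3.10.9.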

Additional observations from a re-analysis of the deposited data

How the results depend on the processing

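Of 46 counts under the alternatives, 42 stayed within 1.5 times the count reported. This limit compares counts and not their distance from the number by length. The members with peaks in both lists fell from 23 to 14 when the peak had to lie inside the gene (19.5 by length class) and to 15 when both peaks had to reach their list's median score (15.2 by length class). Under that limit, 7 members in place of 11 had a shared position (6.03 by length class). With the sham list shortened to the number of SCI peaks, 32 members in place of 52 had a sham peak within 5 kb (33.7 by length class). The SCI count within 5 kb was under the number by length in every alternative run, but the gap varied. It ran from 29 against 39.5 within 10 kb to 25 against 26.0 without the stepped scores (2 times a square root, less 1, with a whole number under the root, to within 0.0001). With SCI peaks at or above the median score of their list it was 19 against 20.7. These alternatives recount the same SCI library, so they are not independent of each other. Taking the 200 genes nearest in length in place of length classes gave 51.1 members for sham and 32.7 for SCI within 5 kb. No paired analysis was possible because each condition has 1 STAT3 library. The depth of both libraries is unknown, so fewer SCI peaks after injury and a lower depth cannot be told apart, and with 1 library per condition the spread between mice is not known.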
